A study of Mus musculus with 14 samples.

Results

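Hepatocytes were studied among the 5063 cell barcodes of 1 single-cell RNA library from a digested mouse liver. They were chosen by measured values, as barcodes with at least 200 genes, at most 20% of unique molecular identifiers (UMIs, 1 per captured RNA molecule) in mitochondrial (mt-) genes, and at least 5% of UMIs in 7 marker genes together, Alb, Apoa1, Apoa2, Apoc3, Ttr, Fabp1 and Serpina1c. They also had at most 1 UMI in all of Kdr, Stab2, C1qa, Cd5l, Dcn, Cd3d and Cd79a, which mark endothelial cells, Kupffer cells, stellate cells, T cells and B cells. The rule gave 370 barcodes. The single-cell library came from the undamaged liver of a C57BL/6 mouse, with all liver cell types taken and the Chromium 3' version 2 kit. In addition, 13 bulk libraries were used. Whole undamaged liver (3 libraries) and sorted, unplated quiescent hepatic stellate cells (4 libraries) both came from C57BL/6J mice that were LratCre+ and TdTom+, and the stellate cells had been sorted for vitamin A and for the TdTom switched on by LratCre. Stellate cells of the strain labelled Balbc were enriched on a gradient, with no sort described. They were plated for 5 h in 10% serum, moved to 0.1% serum and cultured for 24 h with 10 µM UDP-glucose (3 libraries) or without it (3 libraries). Neither the ages nor the sexes of the mice are given, and the labels do not say which libraries came from separate animals. The p-values therefore speak of library-to-library spread, which may be technical. The series asks whether the receptor P2Y14, encoded by P2ry14, ties hepatocyte death to stellate cell activation.

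Hepatocytes are the parenchymal cells of the liver. They secrete most plasma proteins, assemble lipoproteins, make bile acids, store glycogen and detoxify ammonia and foreign compounds. Along the sinusoid, from the portal tract to the central vein, they divide this labour: periportal cells favour urea and glucose synthesis, and pericentral cells favour cytochrome P450 metabolism and, next to the vein, glutamine synthesis. Many of their genes have promoters bound by the liver factors HNF1 and HNF4.

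The upstream sequences of the 3 marker genes with the HNF1 core motif GTTAAT in the 250 bases before the RefSeq start are shown, since these genes define the cells. The table used (RefSeq, GRCm38.p6) held promoters of 5 of the 7 markers and of 390 of the 507 other hepatocyte genes described further on. Bases inside the annotated GENCODE gene were left out, and GTTAAT is in capitals. Alb, the main plasma carrier protein, is at chr5:90460620-90460869 on the plus strand, with the motif from 32 to 27 bases before the start. Fabp1, a fatty acid-binding protein, is at chr6:71199629-71199826 on the plus strand, with the motif 107 to 102 bases before. Serpina1c, an alpha-1-antitrypsin protease inhibitor, is at chr12:103904951-103905200 on the minus strand, with the motif 27 to 22 bases before.
Alb: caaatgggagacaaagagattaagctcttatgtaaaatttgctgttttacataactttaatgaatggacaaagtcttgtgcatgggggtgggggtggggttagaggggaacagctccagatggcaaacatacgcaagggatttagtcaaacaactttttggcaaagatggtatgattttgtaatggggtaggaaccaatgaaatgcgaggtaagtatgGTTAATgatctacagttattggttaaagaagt
Fabp1: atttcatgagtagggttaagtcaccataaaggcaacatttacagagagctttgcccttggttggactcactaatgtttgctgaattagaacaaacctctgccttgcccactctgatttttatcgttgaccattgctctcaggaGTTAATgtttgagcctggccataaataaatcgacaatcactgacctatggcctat
Serpina1c: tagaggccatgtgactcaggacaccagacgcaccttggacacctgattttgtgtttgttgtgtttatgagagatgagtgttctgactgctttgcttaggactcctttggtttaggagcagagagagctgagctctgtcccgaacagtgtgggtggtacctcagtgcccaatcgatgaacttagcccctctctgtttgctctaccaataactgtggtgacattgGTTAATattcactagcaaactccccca
On either strand of these 250 bases, GTTAAT was present in 57 of 390 hepatocyte genes (14.6%) and in 2023 of 27025 genes in the table (7.49%). The HNF4 motif CAAAGTCCA was present in 8 of 390 (2.05%) and in 122 of 27025 (0.451%), and the CCAAT box in 180 of 390 (46.2%) and in 10133 of 27025 (37.5%). None of the 3 motifs contains another, though neighbouring matches can share bases, and a match describes letters only.

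Free hepatocyte RNA was present in most droplets, so the marker share over all 5063 barcodes comes first. Its median was 0.145%, the 75th percentile 0.247%, the 90th 4.20%, the 95th 8.13% and the 99th 11.8%, and the highest barcode reached 16.5%. The share was under 0.5% in 4400 barcodes, and 408 of these had no marker UMI at all. Among the 4808 barcodes that passed the gene and mitochondrial filters, 85 lay between 1% and 5% and 462 at 5% or more. Of the 462, 92 were left out for more than 1 UMI of the exclusion genes. Just inside the limit of 5% the shares were 5.02%, 5.11% and 5.12%, and just outside 4.97%, 4.93% and 4.89%.

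**Figure D1:**
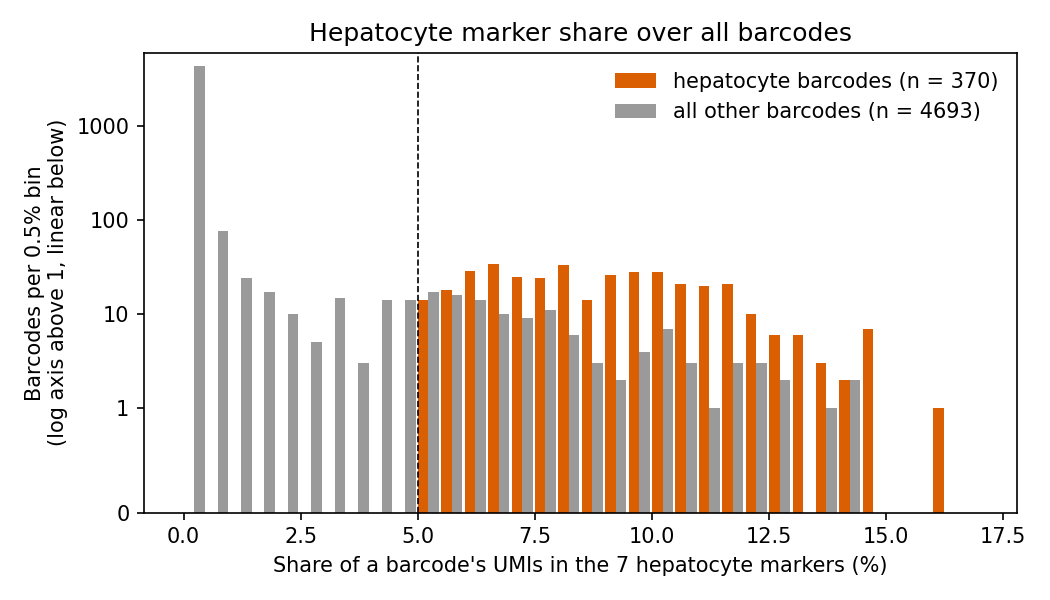
Number of barcodes (vertical axis, logarithmic above 1) by the share of UMIs in the 7 hepatocyte markers (horizontal axis, %, bins of 0.5%), for the 370 hepatocyte barcodes (orange) and all 4693 others (grey); the dashed line is the 5% limit. Most barcodes sit under 0.5%, and grey bars right of the line are barcodes with more than 1 exclusion UMI or failing a filter.

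The 370 hepatocyte barcodes held a median of 1572.5 UMIs (968 to 16925) and 768.5 genes, against 1987.5 UMIs and 1066 genes in the 4346 filtered barcodes with a marker share under 5%. Their median mitochondrial share was 3.47%, against 4.65%. The 92 barcodes left out for exclusion UMIs were deeper, with a median of 3484 UMIs. Within the hepatocyte barcodes, 232 had no exclusion UMI and 138 had 1. No doublet caller was run. Of the 31 hepatocyte barcodes with at least 3 times the median UMIs, 23 had an exclusion UMI. These 31 had 937 CPM (UMIs scaled to a fixed total per class) of 14 endothelial markers, against 1055 CPM in the other hepatocyte barcodes. The 14 include Kdr and Stab2, which the rule held to at most 1 UMI per barcode at any depth. These values therefore cannot show whether the deep barcodes were doublets.

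CPM were taken over the summed UMIs of a class, with exact Poisson 95% intervals. All intervals here, Poisson and exact binomial alike, cover counting error only, and with 1 library there is no test between barcodes. Reference classes were set by at least 3 UMIs of their own markers and at most 1 of the others: 2086 endothelial, 209 Kupffer, 169 stellate, 189 T and 181 B barcodes. The 7 markers together were 88272 CPM in hepatocyte barcodes (87633 to 88914), 2045 CPM in endothelial and 1681 CPM in T and B barcodes, which should not express them. A T or B barcode held a median of 2 marker UMIs, with a 95th percentile of 6. The highest T barcode held 132 and the highest B barcode 141, so single barcodes weigh on the summed level. Because the markers chose the barcodes, these values are a description.

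Markers of other liver cells were low in the hepatocyte barcodes. The 14 endothelial markers summed to 1025 CPM, against 25566 CPM in endothelial and 963 CPM in T and B barcodes. The 12 Kupffer markers summed to 268 CPM, the 12 stellate markers to 295 CPM and the 12 T and NK markers to 128 CPM. Of the 8 markers of cholangiocytes, the cells lining bile ducts, 5 had no UMI, and the list summed to 16.9 CPM (9.24 to 28.4). P2ry14 had 2 UMIs, 2.42 CPM (0.293 to 8.73), against 18.7 CPM in all other barcodes. The rule limited the exclusion genes, and the T and B classes were limited in the markers of other cells, so these sums are a description and no independent check of the label.

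Malat1, a long noncoding RNA kept in the nucleus, was far lower in hepatocyte barcodes than in every other class. It was 1203 CPM in hepatocyte barcodes (1129 to 1280), against 26020 CPM in endothelial, 24032 CPM in Kupffer, 26531 CPM in stellate, 19208 CPM in T and 24954 CPM in B barcodes. The median share of Malat1 was 0.0550% in hepatocyte barcodes and 2.54% in endothelial barcodes. Only 2 of the 370 hepatocyte barcodes had a share of at least 1%, and 63.5% had any Malat1 UMI, against 99.5% of endothelial barcodes (46.9% and 99.5% after thinning each barcode to 1000 UMIs). In the 92 barcodes left out for exclusion UMIs Malat1 was 2020 CPM. Whether a hepatocyte barcode held a whole cell, with its nucleus, was not tested.

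**Figure D2:**
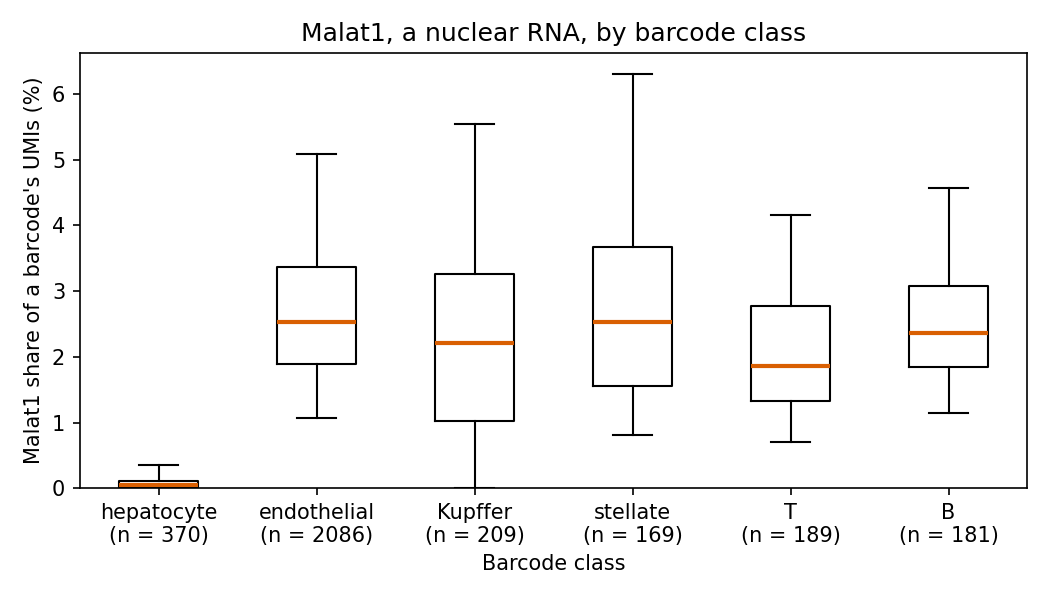
Malat1 as a share of UMIs (vertical axis, %) in each barcode class (horizontal axis, hepatocyte class first); boxes span the quartiles, orange lines are medians and whiskers reach the 5th and 95th percentiles. The hepatocyte median of 0.0550% lies under the 5th percentile of the endothelial, stellate, T and B classes.

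Genes of secreted proteins were prominent among the most abundant. Besides the 7 markers, 507 genes reached at least 50 CPM in hepatocyte barcodes and at least 5 times the level in the other barcodes (10 CPM added to both), and they are called hepatocyte genes here. They took 30.8% of UMIs in hepatocyte barcodes and 1.34% in the others. Outside the markers and the mitochondrial and ribosomal genes, the most abundant was Mup20, a major urinary protein that carries pheromones, at 20645 CPM (20336 to 20957), against 438 CPM in the other barcodes. Apoe and Apoc1, apolipoproteins of lipoprotein particles, followed at 17150 and 13295 CPM, against 6557 and 867 CPM. The ferritin light chain Ftl1 was 13392 CPM, against 6133 CPM. Serpina1e, Serpina1b and Serpina1a, copies of the alpha-1-antitrypsin gene, were 12352, 6342 and 6310 CPM. Serpina3k, a related inhibitor, was 9331 CPM, the iron carrier transferrin (Trf) 7757 CPM and the retinol carrier Rbp4 5579 CPM. With 50 CPM added to both, Mup20 was 42.4 times, Serpina1e 39.9 times, Rbp4 31.2 times and Bhmt, which remethylates homocysteine, 26.9 times the level in the other barcodes.

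Over all genes, 12034 had a UMI in hepatocyte barcodes, and 507 of these, besides the 7 markers, were hepatocyte genes. The limits were applied to the barcodes that the rule picked, so the counts by list here and below are a description. By role, 26 of 30 measured plasma carriers and protease inhibitors were hepatocyte genes, and the list summed to 68302 CPM, against 1384 CPM in T and B barcodes. Of 17 apolipoprotein and lipoprotein genes 11 were, Apoc4 among them at 2371 CPM and Apob, the core protein of very-low-density lipoprotein, at 788 CPM. Of 39 measured complement and coagulation genes 31 were, led by the fibrinogen chains Fgb at 1515 CPM and Fgg at 1340 CPM. Fibrinogen is the precursor of the blood clot. Of 21 measured Mup genes 12 were, but the Mup copies are nearly identical in sequence, as are the Serpina1 copies, so counts within each family are uncertain.

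Metabolic genes were next. Of 37 genes of amino acid breakdown 30 were hepatocyte genes, with Bhmt at 2445 CPM and Hpd, of tyrosine breakdown, at 1581 CPM. Of 30 conjugation genes 19 were, with the glutathione transferases Gstp1 at 6293 CPM and Mgst1 at 4006 CPM, and Gnmt, which methylates glycine, at 1900 CPM. Of 39 measured other cytochromes P450 19 were, led by Cyp3a11 at 1715 CPM. Of 29 genes of fatty acid oxidation and ketone synthesis 13 were. Of 24 genes of bile acid synthesis and transport 15 were, with the uptake carrier Slc10a1 at 210 CPM.

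Regulators and genes of the studied pathway were scarcer. Hnf4a, the nuclear receptor that maintains hepatocyte identity, was 227 CPM (196 to 262), with a UMI in 34.9% of hepatocyte barcodes, against 4.24 CPM in T and B barcodes. Cebpa was 399 CPM. Of 25 hepatocyte transcription factors listed, 6 were hepatocyte genes. Gjb1, a gap junction subunit, was 429 CPM, against 7.07 CPM in T and B barcodes. Ugp2, which makes UDP-glucose, was 245 CPM, against 41.0 CPM, and the liver glycogen synthase Gys2 was 72.5 CPM, against 2.83 CPM. Alas2, the erythroid form of the first enzyme of heme synthesis, was 136 CPM (112 to 164), against 42.6 CPM in endothelial barcodes and 124 CPM in all other barcodes together, although the hemoglobin gene Hbb-bs was 766 CPM in hepatocyte barcodes and 4708 CPM in endothelial ones. In bulk, Alas2 was 60.5, 69.0 and 69.0 TPM (transcript abundance scaled by length to a fixed total per library) in whole liver and at most 0.219 TPM in quiescent stellate cells. Alas2 was chosen after its values were seen.

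Hepatocyte transcripts in other classes were compared by list. Only markers and hepatocyte genes of at least 100 CPM, with a minimum of UMIs in the reference class, entered the ratios. Against endothelial barcodes this left 15 of 33 pericentral and 24 of 32 periportal genes. These limits cut the ratios at both ends, and the reference classes were held to a marker share under 5%. The level in hepatocyte barcodes was a median of 42.5 times that in endothelial barcodes over the 7 markers (38.2 to 54.3 times) and 49.5 times over 12 Mup genes (44.7 to 77.0 times). Over 24 periportal genes it was 45.1 times (17.6 to 80.2 times), and over 15 pericentral genes 29.1 times (11.9 to 44.6 times), so the ranges overlapped. Against T and B barcodes the medians were 53.4 times for the markers, 43.4 times for 16 periportal genes, 38.1 times for 17 complement and coagulation genes, 37.6 times for 7 other cytochromes P450 and 32.4 times for 10 pericentral genes. No test was made between the lists. Cyp2e1, a pericentral cytochrome P450, was 1059 CPM in hepatocyte barcodes, against 85.4 CPM in endothelial and 36.8 CPM in T and B barcodes, while Cyp2f2, a periportal one, was 738 CPM, against 12.7 and 8.49 CPM.

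The hepatocyte barcodes differed in mitochondrial share. At least 10% of UMIs were mitochondrial in 62 barcodes and under 10% in 308. This split was made after the values were seen, and its levels are CPM of the UMIs outside mt- genes. The 62 barcodes were deeper, with a median of 3116 UMIs and 1261.5 genes, against 1451 UMIs and 744.5 genes. Malat1 was 2518 CPM (2305 to 2745) in them, against 846 CPM (772 to 925), and the nuclear RNA Neat1 186 CPM (132 to 256), against 36.9 CPM (22.8 to 56.4).

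The following genes were picked from the 15 highest ratios between the barcodes with more mitochondrial UMIs and the others. Cps1, the mitochondrial enzyme that starts the urea cycle, was 3635 CPM (3378 to 3906), against 478 CPM (423 to 538). Apob was 2072 CPM, against 402 CPM. The fibrinogen chain Fga was 2905 CPM, against 543 CPM, complement C3 was 2435 CPM, against 588 CPM, and fibronectin (Fn1) was 627 CPM, against 100.1 CPM. The growth factor receptor Egfr was 603 CPM, against 107 CPM, and G6pc, which releases glucose from its phosphate, was 392 CPM, against 36.9 CPM. As a list, complement and coagulation genes summed to 24044 CPM, against 9652 CPM, a ratio of 2.48 with 50 CPM added to both. The same ratio was 1.27 for plasma carriers and 1.05 for Mup genes. The secreted markers went both ways. Apoc3, Ttr, Apoa2 and Serpina1c had such ratios of 0.66, 0.78, 0.79 and 0.80, and Alb and Apoa1 1.62 and 1.18.

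Other genes stood lower in the same barcodes. Gstp1 was 1411 CPM (1253 to 1584), against 8643 CPM (8403 to 8888). The marker Fabp1 was 6765 CPM, against 20499 CPM, and Ftl1 was 6153 CPM, against 17262 CPM. Cycs (cytochrome c) was 142 CPM, against 702 CPM, and the thioredoxin gene Txn1 was 167 CPM, against 795 CPM. Genes of ribosomal proteins summed to 59899 CPM, against 96165 CPM. Mup20 did not differ by more than counting error, at 22143 CPM (21502 to 22798), against 22075 CPM (21691 to 22465). Zonation genes differed between the sets too. Cyp2f2 was 1911 CPM, against 388 CPM, and Glul, of glutamine synthesis, 314 CPM, against 1220 CPM, while Cyp2e1 was 1298 CPM, against 1075 CPM. With 50 CPM added to both, the ratio was 0.69 for the pericentral list and 1.20 for the periportal one. Serpina1e was kept in this periportal sum, with 7878 of its 17050 UMIs in the set under 10%. Its own ratio was 0.83, so it lowers the ratio of the list. The part of zonation in the split was not tested.

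Gene length differed along this order. Among 1652 genes of at least 100 CPM in either set, 258 were at least 2 times as high in the barcodes with more mitochondrial UMIs (50 CPM added), and 129 were at most 0.5 times as high. The median exon length (all annotated exons of a gene joined, GENCODE vM21) was 4324 bases over 256 of the 258 genes, 2900 bases over the genes between, and 1715 bases over 127 of the 129 genes. The lists of plasma carrier, lipoprotein and complement proteins gave 30 of the 258 genes, 42 of the 1265 between and none of the 129. Mup genes, also secreted, are not in that count, and Mup10 was among the 15 lowest ratios, at 318 CPM, against 1840 CPM. In whole liver, mitochondrial genes took 19.0%, 18.5% and 22.4% of TPM, above the 3.47% median of the hepatocyte barcodes. The rule limited that median, since it allowed at most 20%, and 15 barcodes that met its other limits were over 20%. TPM is scaled by length and the barcode share is not, so the measures also differ. The part of depth in these differences was not tested.

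**Figure D3:**
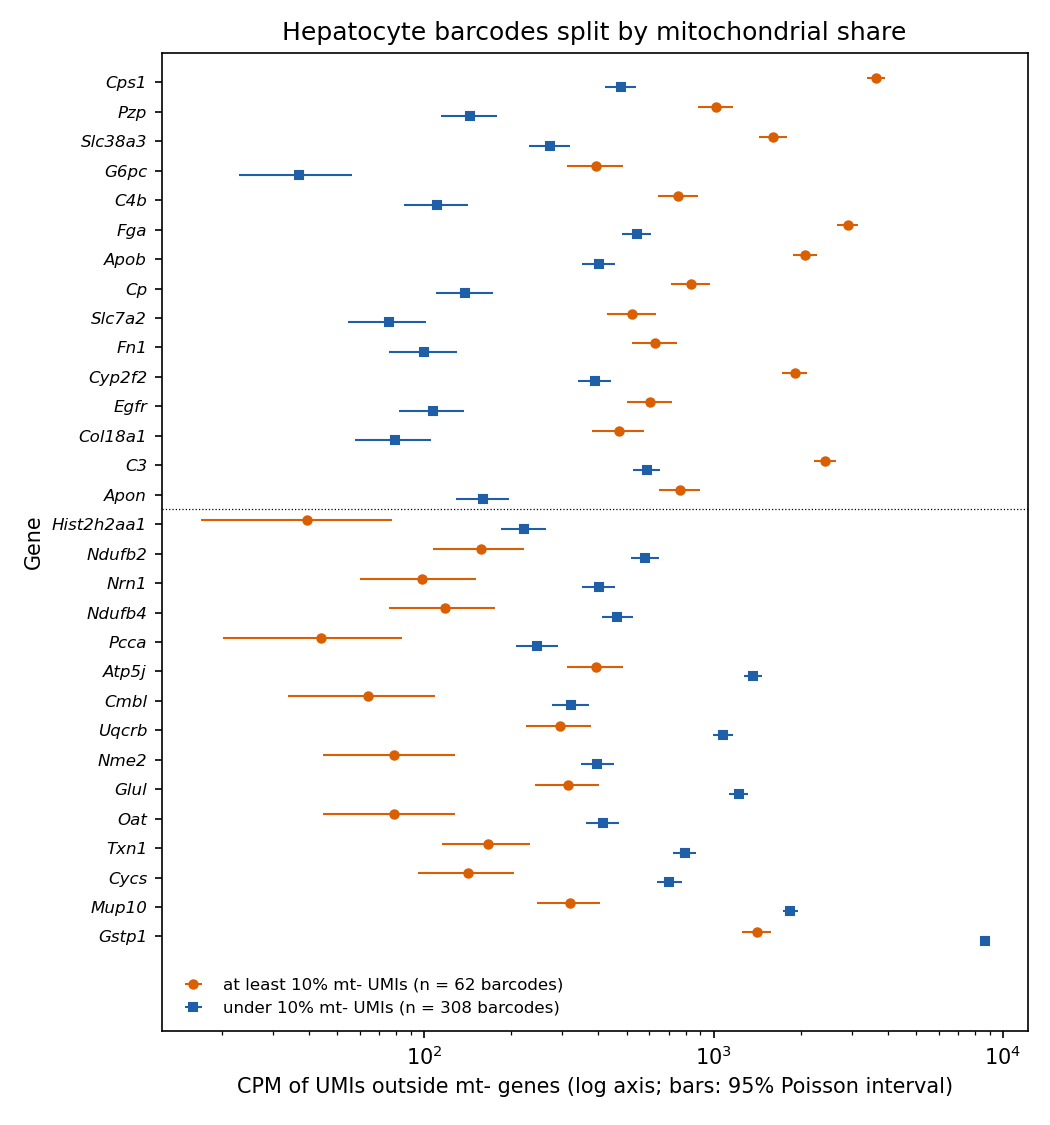
CPM of UMIs outside mt- genes (horizontal logarithmic axis) for the 15 genes with the highest and, under the dotted line, the 15 with the lowest ratio between hepatocyte barcodes with at least 10% mitochondrial UMIs (orange, 62 barcodes) and under 10% (blue, 308 barcodes); bars are 95% Poisson intervals. Cps1 is at 3635 against 478 CPM at the top, and Gstp1 at 1411 against 8643 CPM at the bottom.

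Zonation was visible among the hepatocyte barcodes. For equal depth, 354 barcodes were thinned to 1000 UMIs each, which left out 16 shallower ones. The 33 pericentral genes gave a median of 4 UMIs per barcode (0 to 59, with 35 barcodes at 0), and the 31 periportal genes other than Serpina1e gave a median of 16 UMIs (1 to 48). Across barcodes of this 1 library the sums ran against each other, with Spearman's rho of -0.45 (-0.61 with Serpina1e, the most abundant periportal gene), while rho with the barcode's UMIs was -0.02 for the pericentral sum and 0.16 for the periportal one. The sums share a fixed total of 1000 UMIs. Within the barcodes with at least 10% mitochondrial UMIs rho was -0.43, and within the others -0.47.

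**Figure D4:**
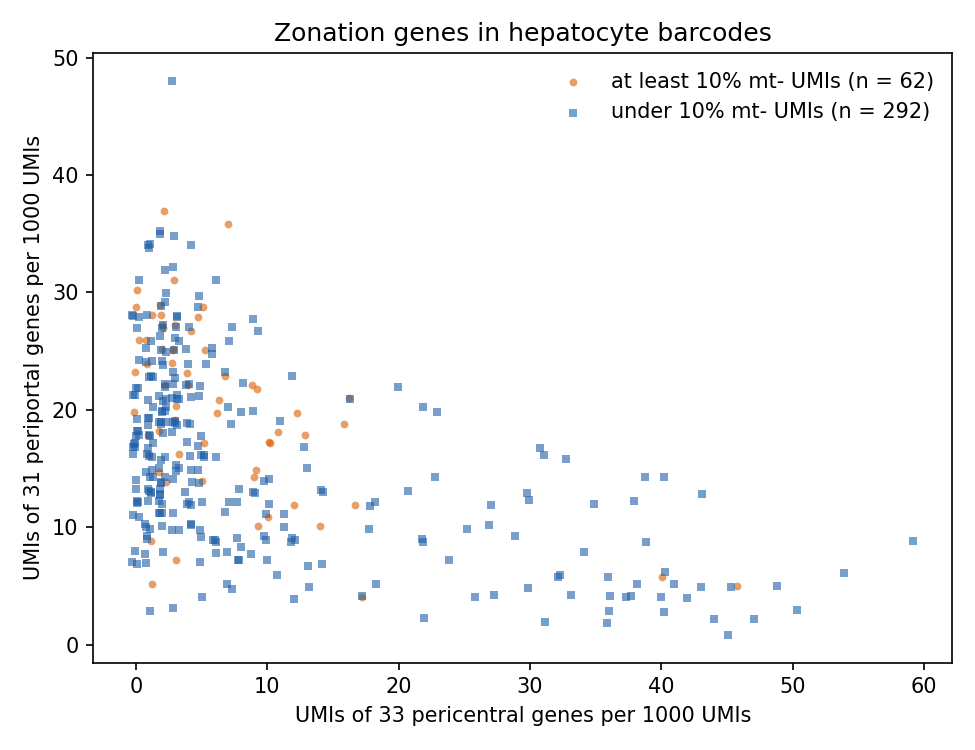
UMIs of 33 pericentral genes (horizontal axis) and of 31 periportal genes (vertical axis) in each of 354 hepatocyte barcodes thinned to 1000 UMIs, coloured by mitochondrial share; points are shifted by up to 0.3 UMIs so that they do not hide each other. Barcodes with 30 or more pericentral UMIs number 40 and hold at most 17 periportal UMIs, while 258 barcodes hold under 10 pericentral UMIs.

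Cyp2e1 and Cyp2f2 marked mostly different barcodes. Of the 354, 121 had a Cyp2e1 UMI and 101 a Cyp2f2 UMI, and 19 had both, where the product of the shares gives 34.5. Of the Cyp2e1 barcodes 15.7% also held Cyp2f2 (exact binomial interval 9.73% to 23.4%). At 500 UMIs it was 7 of 100 barcodes (2.86% to 13.9%). The 83 barcodes with at least 2 UMIs of Cyp2e1 and under 2 of Cyp2f2 had 2012 CPM of Cyp2c29 and 1361 CPM of Rgn, both pericentral, against 0 UMIs (upper Poisson bound 83.8 CPM) and 114 CPM in the 44 barcodes with at least 2 UMIs of Cyp2f2 and under 2 of Cyp2e1. The first set still held 7 UMIs of Cyp2f2, and the second 8 UMIs of Cyp2e1. The periportal Cps1 was 1265 CPM, against 2955 CPM, and Hal, of histidine breakdown, 12.0 CPM, against 636 CPM. Alb was 10048 CPM, against 26386 CPM. The Cyp2f2 barcodes also had a median of 2889.5 UMIs and 13.5% mitochondrial UMIs, against 1590 UMIs and 3.66% in the Cyp2e1 barcodes. Among barcodes with under 10% mitochondrial UMIs, 98 held Cyp2e1, 60 held Cyp2f2 and 6 held both (product of shares 20.1), and among the rest 23, 41 and 13 did (15.2).

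A small set of barcodes carried most of the glutamine synthetase transcript. Glul, which clears ammonia next to the central vein, had at least 5 UMIs per 1000 in 28 barcodes, and these held 86.2% of the Glul UMIs. All 28 lacked Cyp2f2, 25 held Cyp2e1, 25 held Oat, an ornithine aminotransferase, and 3 held the urea cycle gene Ass1, which was present in 302 of the 354. Their depth was like that of the others, with a median of 1604 UMIs, against 1634 UMIs. Oat was 3000 CPM (2393 to 3714) in the 28, against 98.2 CPM (67.1 to 138.6), and Slc1a2, a glutamate carrier, had 14 UMIs in the 28, against 2 UMIs in the other 326. Lect2, a secreted protein, was 1036 CPM, against 64.4 CPM, and Gstm1 7464 CPM, against 1638 CPM. Several plasma protein genes and Pck1, an enzyme gene, differed too. Alb was 5607 CPM, against 16457 CPM, Serpina1e 929 CPM, against 13574 CPM, and Pck1, of glucose synthesis, 107 CPM, against 1307 CPM, while Apoa2 was 35250 CPM, against 17313 CPM. Mup20 was 20250 CPM (18617 to 21988), against 19816 CPM.
Over the 354 barcodes, the genes with the highest rho among the pairs computed were Cyp2e1 with Cyp2c29 (0.66), Glul with Oat (0.65) and Cyp2e1 with Rgn (0.60), and Cyp2f2 went with Cps1 at 0.42. These pairs share library and depth, were picked as known zonation genes and carry no test.

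In bulk, the hepatocyte genes were far higher in whole liver than in quiescent stellate cells, in libraries that the rule did not use. Alb was 17092, 30006 and 24948 TPM in liver, against 11.2, 4.52, 4.99 and 6.25 TPM in quiescent stellate cells (log2 fold change 11.64 ± 0.27 (SE), limma adjusted p = 1.44e-11). Fabp1 was 10088, 11835 and 12578 TPM in liver, against 0.243, 3.42, 0.604 and 1.38 TPM (log2 12.39, adjusted p = 5.39e-11). Summed, the 7 markers were 61710, 88024 and 87827 TPM in liver, against 22.8, 13.7, 12.2 and 14.4 TPM in quiescent cells. The groups were wide apart for each of the 7. All bulk fold changes are differences of log2(TPM + 1), so changes of low genes are understated, and fewer cells of a type cannot be told apart from less RNA per cell in bulk samples.

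Of the 507 hepatocyte genes 492 were in the bulk tables and 491 were tested. In liver, 466 were higher and 1 was lower, at adjusted p under 0.05 and a log2 fold change of at least 1 (over all 12643 genes tested, 10.9% were called higher and 67.0% lower, 77.9% in all). Their median log2 fold change was 5.92, against -1.62 over all genes. Most passed the filter through their liver level: 491 had at least 1 TPM in liver and 216 in quiescent cells, so the count describes them and is no support. After median-of-ratios rescaling, 490 were higher and 1 lower, with 3646 higher and 3158 lower over all genes, and after quantile normalisation 483 and 1, with 2943 and 3547 over all genes. Of the process lists, 20 of 20 Mup genes tested, 28 of 29 plasma carriers, 35 of 37 amino acid genes and 30 of 32 periportal genes were called higher, as were 25 of 31 pericentral genes. Of 28 fatty acid oxidation genes 19 were higher and 1 lower (27 and 1 after median-of-ratios rescaling), and of 39 complement and coagulation genes 32 were higher and 6 lower (33 and 2).

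Zonation genes differed in size of change. Cyp2e1 was 2614, 3809 and 3430 TPM in liver, against 2.41, 2.64, 2.91 and 1.25 TPM in quiescent stellate cells, and Cyp2f2 was 561, 769 and 736 TPM, against 0.408, 0.0518, 0.274 and 0 TPM (log2 9.97 and 9.19, limma adjusted p = 5.67e-12 and 2.97e-12). Glul was nearer in both groups, with 264, 286 and 240 TPM in liver, against 205, 157, 138 and 205 TPM (log2 0.60, limma adjusted p = 0.00422, under the fold minimum). It was called higher after median-of-ratios rescaling (log2 2.61) and after quantile normalisation (log2 1.47). The 1 hepatocyte gene called lower was Pgm2, a phosphoglucomutase that links glucose phosphates, at 1.29, 2.12 and 1.95 TPM in liver, against 22.4, 24.7, 22.4 and 21.2 TPM (log2 -3.10, limma adjusted p = 1.67e-09), and log2 -1.45 after median-of-ratios rescaling. It was 134 CPM in hepatocyte barcodes. Single-cell and bulk values were matched by gene symbol alone, and whether Pgm2 names the same gene in both annotations was not tested. P2ry14 was 0.159, 0.382 and 0.484 TPM in liver, against 133, 126, 129 and 137 TPM in quiescent stellate cells (log2 -6.63, limma adjusted p = 3.28e-12).

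**Figure D5:**
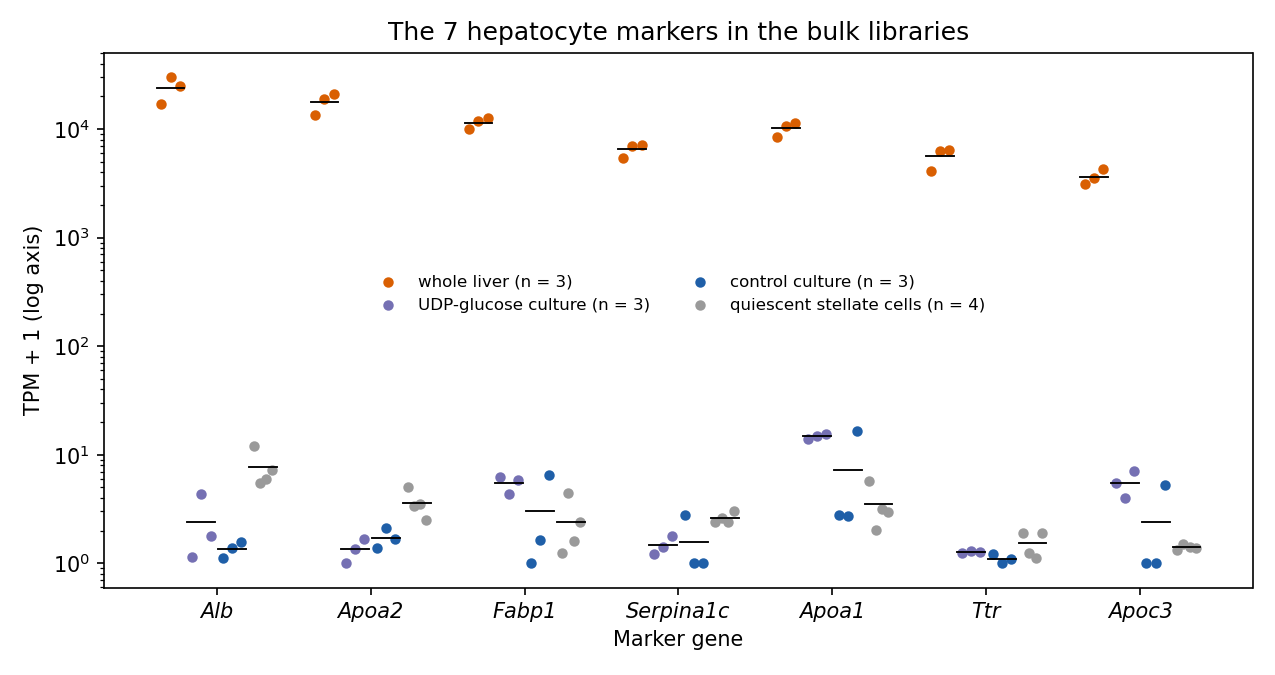
TPM + 1 (vertical logarithmic axis) of the 7 hepatocyte markers in each bulk library (points), by group from left to right: whole liver, UDP-glucose culture, control culture and quiescent stellate cells; black bars are means. Liver libraries lie between 3099 and 30006 TPM, and the other libraries at 15.4 TPM or lower, with 1 control culture near the UDP-glucose cultures for Apoa1, Apoc3 and Fabp1.

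Hepatocyte barcodes and whole liver ranked the hepatocyte genes alike. Across the 492 genes Spearman's rho between CPM and mean liver TPM was 0.81, as a description over genes, which are not independent. Far lower in the barcodes relative to liver were Mup copies, led by Mup14 (403 CPM and 23363 TPM), whose near-identical copies make single values uncertain, and the secreted inhibitors Pzp (350.3 CPM and 1717 TPM) and Mug1 (281 CPM and 976 TPM). Cyp2e1 was also low, with 1059 CPM and 3284 TPM, 2.08 under the median gene on the log2 scale, while Cyp2f2 was 0.36 under it. Highest relative to liver were Gm5424, Serpina12 and Pgm2. Genes were matched by symbol alone, so a symbol that the 2 annotations use differently would also give such a ratio, which was not tested. The 3' counts are not scaled by length and TPM is, and the mice carry different strain labels, so these ratios compare all of this at once.

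Cultured stellate cells were set against quiescent ones to describe hepatocyte genes in stellate cell libraries, where the 492 genes took 1.57% ± 0.0262 of TPM in control cultures (SD, n = 3) and 1.13% ± 0.0675 in quiescent cells (SD, n = 4). In whole liver they took 35.2% ± 3.44 (SD, n = 3). In control cultures, 68 of 228 hepatocyte genes tested were higher and 42 lower than in quiescent cells (18.6% and 13.2% of all 12537 genes, 31.8% in all). The list's median log2 fold change was 0.39, and that of all genes 0.26, which moved to 0.00027 after median-of-ratios rescaling, where 58 were higher and 49 lower (1495 and 2081 of all genes). After quantile normalisation 61 were higher and 43 lower (1729 and 1855 of all genes). Culture, strain, sorting and table differ together between these groups and cannot be told apart.

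The largest rises were those of Chchd10, Gsta3, Mgst1, Atf5 and Fetub. Chchd10, a mitochondrial protein, was 413, 337 and 379 TPM in control cultures, against 0.493, 1.48, 0.975 and 2.57 TPM in quiescent cells (log2 7.38, limma adjusted p = 4.09e-08). Of its exon length, 11.4% overlaps other gene models. Gsta3, a glutathione transferase, was 42.1, 31.9 and 40.3 TPM, against 0.792, 0.639, 0.504 and 0 TPM (log2 4.74, limma adjusted p = 1.81e-07). Mgst1, a membrane-bound glutathione transferase, was 165 ± 9.42 TPM (SD, n = 3), against 7.04 ± 1.39 TPM (SD, n = 4), and Gstp1 rose by 3.22 on the log2 scale. Atf5, a stress transcription factor, was 547 ± 17.9 TPM (SD, n = 3), against 27.9 ± 4.95 TPM (SD, n = 4), and 104 ± 12.6 TPM in liver (SD, n = 3). Fetub, a secreted protease inhibitor, was 13.9 ± 0.193 TPM (SD, n = 3), against 0.387 ± 0.219 TPM (SD, n = 4).

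The largest falls were those of Cfb, Inmt, Apoc1, C4b and Trf. Apoc1 was 14.6, 12.1 and 18.3 TPM in control cultures, against 320.1, 332, 278 and 279 TPM in quiescent cells (log2 -4.26, limma adjusted p = 2.20e-08). Transferrin (Trf) was 35.5 ± 13.0 TPM (SD, n = 3), against 445 ± 58.2 TPM (SD, n = 4), and 63.5% of its exon length overlaps other gene models. The complement genes Cfb and C4b fell by 4.42 and 3.90 on the log2 scale (79.5% of the exon length of Cfb overlaps other gene models). The methyltransferase Inmt fell to 6.31, 5.86 and 4.93 TPM in control cultures, against 255, 55.8, 54.8 and 479 TPM in quiescent cells, which differed widely among themselves. Alb fell by 2.45 (adjusted p = 4.99e-05), to 0.120, 0.392 and 0.560 TPM. Apoa1 and Fabp1 did not pass the test (adjusted p = 0.400 and 0.960 by limma).

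UDP-glucose was compared with control cultures to see whether it changed hepatocyte transcripts there. Of 223 hepatocyte genes tested with limma, none was called higher and 1 lower (0.428% and 0.181% of all 12161 genes, 0.609% in all). At an unadjusted p under 0.05, 2 were higher and 37 lower, while 1220 of all 12161 genes were under that value in either direction. The 1220 were not split by direction, so the split is not shown to be particular to hepatocyte genes. The median log2 fold change was -0.10 over the 223 and -0.051 over all genes. The 1 called was Selenbp1, a selenium-binding protein, at 32.2, 27.0 and 32.97 TPM with UDP-glucose, against 45.3, 48.2 and 50.01 TPM (log2 -0.63 ± 0.10 (SE), adjusted p = 0.0456). The groups did not overlap, but the call was lost without any 1 of the 6 libraries, under median-of-ratios and quantile scaling and with no filter. Over all genes 74 were called (52 higher and 22 lower, and 66 and 12 after median-of-ratios rescaling), and 24, 64 or 21 without control replicate 1, 2 or 3 and 30, 20 or 24 without UDP-glucose replicate 1, 2 or 3. Apoe, not a hepatocyte gene by the limits used, was 1887, 1915 and 1937 TPM, against 2635, 2495 and 2548 TPM (log2 -0.42, adjusted p = 0.0185); its call was lost without control replicate 1 or 3, without any 1 UDP-glucose replicate, under median-of-ratios scaling and with no filter. P2ry14 was 252, 276 and 269 TPM, against 201, 218 and 194 TPM (log2 0.38, limma adjusted p = 0.0649), and was called after median-of-ratios rescaling (adjusted p = 0.0338).

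One control culture held more hepatocyte marker transcripts than the others. The 7 markers summed to 23.3, 24.6 and 28.0 TPM with UDP-glucose, against 4.26, 3.84 and 26.4 TPM in control cultures. Apoa1 was 13.0, 13.8 and 14.4 TPM with UDP-glucose, against 1.78, 1.70 and 15.4 TPM (log2 1.57 ± 0.64 (SE), limma adjusted p = 0.474). Apoc3 was 4.49, 3.03 and 6.12 TPM, against 0, 0 and 4.22 TPM. Fabp1 was 5.22, 3.31 and 4.91 TPM, against 0, 0.641 and 5.49 TPM. In all 3 genes control replicate 3 lies within or above the UDP-glucose range, and without it the log2 fold change of Apoa1 was 2.43 and passed the test. That replicate was singled out by these same values, so the fit without it is no support for a change with UDP-glucose. Alb, Ttr, Apoa2 and Serpina1c averaged under 1 TPM over the 6 libraries and were not tested.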

How the data were processed

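RNA was profiled in 13 bulk libraries and 1 single-cell library of mouse liver. The bulk values are TPM per gene, deposited by the authors in 3 tables of the same 35197 rows. The submitters' processing notes name bcl2fastq 2.19, kallisto 0.44.0, DESeq2 and Cell Ranger, with the builds GRCm38 and mm10. The single-cell values are whole-number UMI counts per gene and barcode, as deposited. TPM keeps no depth, so bulk read depth is unknown. Rows named by dates, 26 per table (at most 0.319% of TPM), were left out, which left 35171. Whether counting used strand is not stated.

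Barcodes were selected by the stated rule, and CPM were computed from summed UMIs in Python 3.11.15 (numpy 2.4.6, scipy 1.17.1, pandas 2.3.3). Shares of barcodes were also taken after seeded thinning to 1000 UMIs. No doublet caller was run. Bulk comparisons used limma 3.58.1 (R 4.3.3), two-sided, with a mean-variance trend and values as log2(TPM + 1). Genes averaging 1 TPM or more entered, and calls needed a Benjamini-Hochberg adjusted p under 0.05 plus, except for UDP-glucose, a log2 fold change of 1 or more in size. The limma step was checked on simulated data. Liver, quiescent and cultured libraries stand in separate tables, so table and group cannot be told apart except between the 2 kinds of culture, which share a table. The members, gene lists and tests were chosen with earlier results of these data known. Named genes are the 7 markers, the 15 most abundant other genes of the barcodes, the 10 with the largest fold over the other barcodes, up to 4 abundant members of each list and, in bulk, the 5 largest rises and falls among called hepatocyte genes and up to 3 called members of each list. Genes of the mitochondrial split, of zonation and of the likeness to liver were chosen after their values were seen. Alternatives changed the selection limits, the thinning, the pseudocount, the filter, the scaling and the libraries used.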

Additional observations from a re-analysis of the deposited data

How the results depend on the processing

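The number of hepatocyte barcodes was 370, and 125 with a share minimum of 10%, 232 with no exclusion UMI allowed and 137 with at least 2000 UMIs. With a minimum of 3%, other mitochondrial limits, no exclusion limit or the share taken without Alb it stayed within 1.5 times. No barcode reached 20%, so alternatives at that minimum gave no value. The process lists together held 238032 CPM, and 233263 thinned to 1000 UMIs, 233583 as a mean over barcodes, 233926 with a mitochondrial maximum of 10%, and, in alternatives chosen after seeing the data, 232520 with no exclusion UMI and 233518 without barcodes of 3 times the median UMIs. The share of Cyp2e1 barcodes with Cyp2f2 was 15.7%, and 7.0% at 500 UMIs. The 7 markers in T and B barcodes were 1681 CPM, and 1426 CPM in barcodes with at least 5 UMIs of T or B markers.

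For liver against quiescent cells 9847 genes were called, and 6490 after quantile normalisation. On the log2 scale, median-of-ratios rescaling turned Csf1r to 0.0019 and Bst2 to 0.81, and quantile normalisation turned Csf1r to 0.0558. For control cultures against quiescent cells 3990 genes were called, and 2631 with a pseudocount of 5. In that comparison Fabp1 turned to -0.51 with a pseudocount of 0.1 and to -0.091 after median-of-ratios rescaling. Without 1 library each, Apoa1 ranged from -0.24 (without control replicate 3) to 1.06, and Fabp1 from -0.74 (without control replicate 3) to 0.61, also below 0 without quiescent replicate 1 or 3. For UDP-glucose 74 genes were called, and 30 with no filter beyond a value above 0. Hepatocyte genes called higher were 0, and 1 after median-of-ratios rescaling. Those called lower were 1, and 0 with no filter or after median-of-ratios rescaling, and 2 with a mean of at least 5 TPM or after quantile normalisation. Over settings that leave out 1 library each, the genes called ranged from 9671 to 9977 for liver, from 3942 to 4052 for control cultures and from 20 to 64 for UDP-glucose. Hepatocyte genes called higher ranged from 462 to 469, 62 to 72 and 0 to 0, and those called lower from 1 to 1, 39 to 44 and 0 to 1. The cause of these shifts was not tested. No paired analysis was possible because the numbers in the labels are not shared between groups. With 1 single-cell library, differences between mice cannot be seen, and transcripts under about 5 CPM in hepatocyte barcodes rest on a handful of UMIs.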
